A study of Mus musculus with 4 samples.

Results

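The genes described here are the inhibitory Smads and the other genes that a BMP signal switches on in the cell that receives it: Smad6, Smad7, Smad9, Id1, Id2, Id3, Id4, Atoh8 and Bambi. They were taken by name from the platform annotation, which gave 14 probe sets for the 9 genes, of 45037 probe sets and 18193 genes on the array. Dermis was separated with dispase from the dorsal skin of 4 mouse embryos at E15.5, and the RNA of each was hybridized to an Affymetrix Mouse430_2 array of its own. The arrays labelled mutant 1 and mutant 2 came from KRT14-Cre Ctnnb1(Ex3)fl/+ embryos, and those labelled control 1 and control 2 from control littermates whose own alleles the labels do not give. The keratin 14 promoter drives Cre in surface epithelium, where the recombined allele gives a beta-catenin that escapes degradation, so the dermis beneath is not the tissue that carries the activated protein. The study compared the dermis under such an epithelium with that of the littermates.

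BMP ligands bind paired serine/threonine kinase receptors, which phosphorylate Smad1, Smad5 and Smad9, and these enter the nucleus with Smad4. Among the genes they induce are several that restrain the same signal, so the RNA of the inhibitory Smads, Bambi and the Id genes is widely used as a readout of how much BMP signal a tissue receives. In embryonic skin the pathway acts in dermis and epithelium alike, where it takes part in spacing and differentiating hair follicles and in the maturation of the dermis.

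Promoters are shown for 4 of the genes, 3 with a large spread between arrays (Smad6, Id3 and Id4) and Id2 with a small one, so that the letters around their start sites can be set beside the values. Each runs from 250 bases before to 50 bases after the start site on the gene's own strand, as RefSeq gives it on GRCm38.p6. Smad6 lies at chr9:64022010-64022309 (minus strand), Id2 at chr12:25096043-25096342 (minus), Id3 at chr4:136143572-136143871 (plus) and Id4 at chr13:48260866-48261165 (plus). Capitals mark GGCGCC, a GC-rich sequence known to bind BMP Smads, and GTCT or its reverse complement, the sequence known to bind Smad4.
Smad6: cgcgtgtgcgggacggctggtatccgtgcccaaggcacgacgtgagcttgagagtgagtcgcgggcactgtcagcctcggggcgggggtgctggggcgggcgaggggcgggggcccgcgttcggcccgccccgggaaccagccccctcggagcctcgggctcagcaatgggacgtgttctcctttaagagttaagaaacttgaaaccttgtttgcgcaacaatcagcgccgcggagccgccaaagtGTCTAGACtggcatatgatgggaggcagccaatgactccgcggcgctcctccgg
Id2: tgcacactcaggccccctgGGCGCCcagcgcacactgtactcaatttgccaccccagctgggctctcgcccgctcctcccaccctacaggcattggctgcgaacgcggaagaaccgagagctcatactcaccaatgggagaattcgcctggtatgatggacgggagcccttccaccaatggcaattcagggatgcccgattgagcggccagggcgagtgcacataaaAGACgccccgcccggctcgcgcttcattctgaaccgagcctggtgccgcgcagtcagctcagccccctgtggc
Id3: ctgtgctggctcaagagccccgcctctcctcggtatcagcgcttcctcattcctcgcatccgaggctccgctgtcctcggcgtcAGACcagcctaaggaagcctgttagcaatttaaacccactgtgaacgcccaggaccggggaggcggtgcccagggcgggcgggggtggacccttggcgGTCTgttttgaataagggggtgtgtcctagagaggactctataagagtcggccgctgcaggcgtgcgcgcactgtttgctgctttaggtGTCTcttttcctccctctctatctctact
Id4: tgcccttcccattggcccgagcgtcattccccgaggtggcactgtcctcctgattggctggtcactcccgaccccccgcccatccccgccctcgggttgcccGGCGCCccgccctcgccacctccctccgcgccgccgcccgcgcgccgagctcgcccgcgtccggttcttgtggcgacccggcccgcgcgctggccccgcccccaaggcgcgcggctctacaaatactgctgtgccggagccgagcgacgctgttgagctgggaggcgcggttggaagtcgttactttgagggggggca

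Promoters were read for 6 of the 9 genes (Smad6, Smad9, Id2, Id3, Id4 and Atoh8), and GGCGCC stood in 3 of them, 51 bases before the start site of Smad9, 148 before that of Id4 and 231 before that of Id2. It stood in 11.9% of all 32851 promoter windows. These windows were rich in G and C, at 60% to 73.7% against a median of 52.7%, a property that GGCGCC itself shares. GTCT on either strand stood in 4 of the 6 and in 88% of all windows. In Smad6 the letters GTCT and their reverse complement meet as GTCTAGAC, which begins 4 bases before the start site and runs across it. This palindrome stood in 0.213% of all windows. It was counted after it had been seen in Smad6. A match of letters is a description and does not show binding in this tissue.

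The deposited values are signal intensities, scaled by the authors to the same trimmed mean of 150.0 on all 4 arrays, with array medians of 28.7 to 32.4. The number of arrays limits the precision, and levels of different probe sets cannot be set against each other. All 10 dermal fibroblast markers gave signals of 909 or more on every array, while the instrument records name the sample as mouse epidermis. Ctnnb1, the altered gene, had signals of 5335 (control 1), 4721 (control 2), 4838 (mutant 1) and 4397 (mutant 2) (log2 difference -0.12 ± 0.14, SE, n = 2 per group, limma adjusted p = 0.9999). Its allele is altered in the epithelium, so this does not check the labels.

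The arrays did not fall by label in the table of changed probe sets that the authors deposited with them. Of 97 probe sets listed as higher in mutant in the authors' deposited table, 96 had both control 1 and mutant 2 above control 2 and mutant 1. All 56 listed as lower in the authors' deposited table had them below. The arrays labelled mutant were together above or together below the controls for 0 of these 153 probe sets. Whether labels of a control and a mutant were exchanged was not tested, and each mutant-minus-control value below holds for the labels as given. Values are given below on each array, first by label and then by the array pair of control 1 with mutant 2 against control 2 with mutant 1. That pairing was taken from the values, so differences between the pairs are descriptions and carry no test.

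By label, no member passed the test. Differences of mutant minus control were fitted on log2(signal + 16) with limma over the 22519 probe sets whose mean reached the median of all, and 13 of the 14 member probe sets were among them. None of the 13 passed at a Benjamini-Hochberg adjusted p of 0.05, each with an adjusted p of 0.9999. Unadjusted, 0 of 13 had p under 0.05, the lowest being 0.273. Over all tested probe sets, 0% passed and 0.924% had an unadjusted p under 0.05. The differences of the 13 ran from -0.44 to 0.50 with a median of -0.15, beside a median of -0.01 over all tested probe sets. Their standard errors ran from 0.15 to 0.99, so differences of 2-fold either way lay inside the 95% interval of most members, as for Smad6 (-1.98 to 1.90) and Bambi (-2.23 to 2.50). For 0 of the 14 were both mutants above both controls, against 8.69% of tested probe sets, and for 1, a probe set of Id2, both were below, against 11.8%, which makes 1 of 14 in either direction against 20.5%.

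By pair, the members stood together, which describes genes chosen with earlier results of these arrays known. Probe sets of Smad6, Smad7 and Atoh8 stand in the authors' deposited table, which separates the same pairs. Control 1 and mutant 2 both lay above control 2 and mutant 1 for 13 of the 14 probe sets, and for the brightest probe set of each of the 9 genes. Among all tested probe sets this order held for 26.4%, and among tested genes by their brightest probe set for 29.6%. Both within-label ratios, control 1 over control 2 and mutant 2 over mutant 1, reached 2-fold for 7 of the 14, which are those of Smad6, Atoh8 and Bambi, 1 of Smad7 and all 3 of Id4. Of all tested probe sets 1.87% did so. Averaged over control 2 and mutant 1, Atoh8 lay under the filter and passed through the other pair, so the filter set its direction. Taken singly, control 1 reached 2-fold over control 2 for 10 of the 14 (3.65% of tested probe sets) and mutant 2 over mutant 1 for 7 (3.8%).

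**Figure D1:**
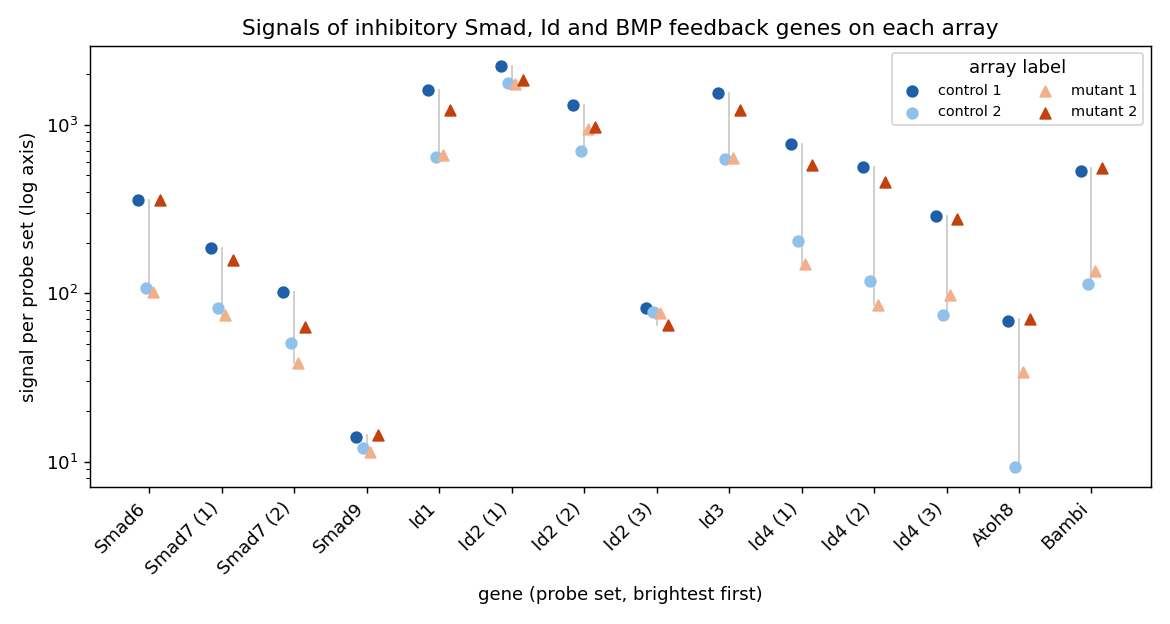
Signal of each of the 14 member probe sets (vertical log axis, arbitrary units) on the 4 arrays, with circles for arrays labelled control, triangles for arrays labelled mutant and a grey line for the range. Control 1 and mutant 2 (dark) lie above control 2 and mutant 1 (light) for all but the dimmest Id2 probe set, where the 4 arrays lie between 64.4 and 81.3.

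Smad6 blocks the phosphorylation of the BMP-activated Smads and their joining with Smad4, and is itself induced by BMP. It gave signals of 359 on control 1 and 357 on mutant 2, and of 108 on control 2 and 102 on mutant 1. The arrays of each pair were close to each other, and the lower of the bright pair was 3.3 times the higher of the dim pair. The ratio was 3.32 between the controls and 3.5 between the mutants, and 1.29% and 1.09% of tested probe sets had larger ratios. By label the log2 difference was -0.04 ± 0.75 (SE, n = 2 per group, limma adjusted p = 0.9999). It was 0.76 without control 1 and 0.79 without mutant 1, but -0.84 without control 2 and -0.87 without mutant 2.

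Smad7 restrains both the TGF-beta and the BMP branch by occupying type I receptors and bringing ubiquitin ligases to them. Its brighter probe set gave 186 on control 1 and 158 on mutant 2 against 81.2 on control 2 and 73.8 on mutant 1. The pairs did not overlap, with ratios of 2.29 between the controls and 2.14 between the mutants, while by label the log2 difference was -0.16 ± 0.48 (SE, n = 2 per group, limma adjusted p = 0.9999). It became 0.36 without control 1 and 0.31 without mutant 1. The other annotated probe set, of a kind that can also bind related transcripts, gave 102 and 63 on control 1 and mutant 2 and 50.9 and 38.3 on control 2 and mutant 1. There the gap between pairs was smaller, at 1.24 times. A further probe set, which the authors' deposited table names Smad7 and the platform annotation does not list, gave 43.7 and 40 against 19.6 and 14.1.

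Smad9, also called Smad8, is a BMP-activated Smad whose RNA is itself raised by BMP and whose transcriptional activity is weak. It gave 14.1 on control 1, 14.4 on mutant 2, 12 on control 2 and 11.4 on mutant 1. These values lie under the median of every array, and the probe set was too dim to be tested. Control 1 and mutant 2 lay above control 2 and mutant 1 as for Smad6 and Smad7, but the ratios were only 1.17 and 1.26, which 25.5% and 20.6% of tested probe sets passed.

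Id1 and Id3 encode helix-loop-helix proteins without a DNA-binding region, which hold E proteins in inactive pairs, and both are direct targets of BMP Smads. Id1 gave 1617 on control 1 and 1218 on mutant 2, and 643 on control 2 and 659 on mutant 1. Id3 gave 1545 and 1224 on the first of these pairs and 629 and 639 on the second. The pattern over arrays was nearly the same for both, with ratios of 2.52 and 2.46 between the controls and 1.85 and 1.91 between the mutants. By label the log2 difference was -0.19 ± 0.51 for Id1 and -0.16 ± 0.51 for Id3 (SE, n = 2 per group, limma adjusted p = 0.9999 for each). Without control 1 these became 0.47 and 0.48, and without mutant 1 they became 0.25 and 0.30.

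Id4 had the widest spread of the Id genes, and its 3 probe sets gave the same order by pair. The brightest gave 772 on control 1 and 577 on mutant 2, and 204 on control 2 and 150 on mutant 1. The next gave 563 and 457 against 118 and 85.3, and the dimmest 287 and 274 against 74.1 and 97.5. Ratios ran from 3.78 to 4.76 between the controls and from 2.81 to 5.35 between the mutants. Id4 acts on differentiation in neural and other tissues, in part through the other Id proteins. Its label difference changed sign between probe sets, at -0.41, -0.35 and 0.14 from the brightest to the dimmest, each with a limma adjusted p of 0.9999 (n = 2 per group). That of the brightest was 0.51 without control 1 and also 0.51 without mutant 1.

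Id2, which also binds E proteins and is expressed in many progenitor cells, differed from the other Id genes in the size of the pair difference. Its brightest probe set gave 2233 on control 1 and 1845 on mutant 2, and 1773 on control 2 and 1742 on mutant 1, a gap of 1.04 times between the pairs. The second gave 1308, 699, 941 and 976 on control 1, control 2, mutant 1 and mutant 2, so that the ratio was 1.87 between the controls and 1.04 between the mutants. The dimmest gave 81.3 and 77.3 on the controls and 76.5 and 64.4 on the mutants. It was the single member probe set with mutant arrays below control arrays, by a log2 difference of -0.14 ± 0.18 (SE, n = 2 per group, limma adjusted p = 0.9999). Leaving out control 1 turned the label difference of the brightest from -0.15 to 0.02.

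Bambi encodes a receptor-like protein without a kinase, which binds to BMP and TGF-beta receptors and blunts their signal. It gave 535 on control 1 and 556 on mutant 2, and 114 on control 2 and 135 on mutant 1. The gap between the pairs, 3.95 times, was the widest of the 14 probe sets. Ratios were 4.69 and 4.11, and 0.79% and 0.817% of tested probe sets had larger ones. By label the log2 difference was 0.14 ± 0.91 (SE, n = 2 per group, limma adjusted p = 0.9999), which turned to -0.90 without control 2 and -0.82 without mutant 2.

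Atoh8, a basic helix-loop-helix factor induced by BMP in several cell types, gave 68.5 on control 1 and 70 on mutant 2. It gave 9.35 on control 2 and 33.9 on mutant 1, so the dim pair was not uniform. Control 2 lay well under its array's median of 29.8, and detection calls were not used here. The ratio between the controls, 7.32, therefore rests on a value near the floor of the array, and that between the mutants was 2.07. By label the log2 difference was 0.50 ± 0.64 (SE, n = 2 per group, limma adjusted p = 0.9999), the largest of the members. It was -0.37 without control 2, and 0.89 with a pseudocount of 1 and 0.22 with 64 in place of 16.

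**Figure D2:**
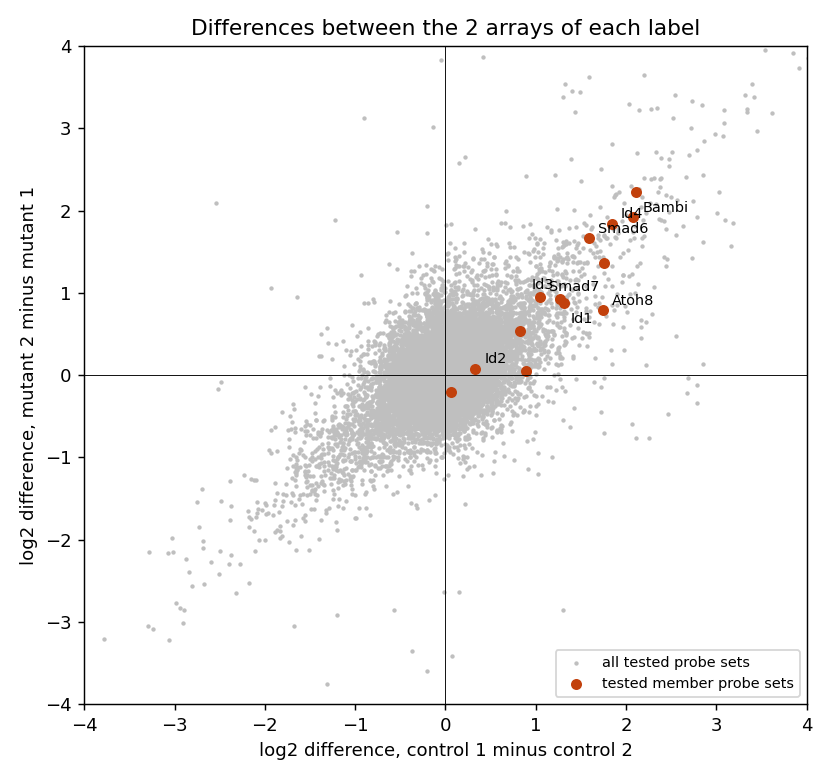
Log2 difference of control 1 minus control 2 (horizontal) against that of mutant 2 minus mutant 1 (vertical), for all 22519 tested probe sets (grey) and the 13 tested member probe sets (red, with the brightest of each gene named). Of the members, 12 lie in the upper right, among them Atoh8, which passed the filter through control 1 and mutant 2. Outside the axes, which end at 4, fall 44 tested probe sets.

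The ratios in the plot of within-label differences share no array, since one comes from the controls and the other from the mutants. Over all tested probe sets their log2 values correlated with a Pearson r of 0.62, given as a description, because probe sets of the same arrays are not independent. Its sign follows from taking mutant 2 minus mutant 1, an order picked from the values. The median log2 difference of the 13 tested member probe sets was 1.31 between the controls and 0.92 between the mutants, against 0.00 and 0.01 over all tested probe sets. Atoh8, which passed the filter through control 1 and mutant 2, is among the 13. Scan order followed the pairs as well. The instrument records gave all 4 arrays the same hybridization entry, fluidics station and scan day. Control 2 and mutant 1 were in modules 1 and 2 and were scanned first and second. Control 1 and mutant 2 stood in modules 3 and 4 and were scanned the third and the fourth. Module, scan order and array pair cannot be told apart.

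The authors' deposited table holds 4 probe sets that name a member. The authors' deposited table lists Smad6 at 4.61, Smad7 at 4.558 and 2.422 and Atoh8 at 2.975, each as the ratio of mutant to control after GCRMA normalization. All 4 lay higher on control 1 and mutant 2, with ratios from 2 to 7.32 between the controls and from 1.65 to 3.5 between the mutants. Taken by the array labels, the 3 of them that the platform annotation names had log2 differences of -0.04 (Smad6), -0.44 (Smad7) and 0.50 (Atoh8), against log2 folds of 2.20, 1.28 and 1.57 in the authors' deposited table. The table was chosen by its authors on these same arrays and is not independent evidence of a direction.

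The other genes of the pathway were read from 8 lists chosen with earlier results of these arrays known, which held 72 tested genes. None passed by label in either direction (limma, adjusted p of 0.05). By pair, 33 of the 72 were higher on control 1 and mutant 2 (45.8%, against 29.6% of all tested genes) and 19 were lower (26.4%, against 23.9%). Some of the 33, such as Nog, Hand2, Msx2, Dlx2 and Dlx5, lay under the filter on control 2 and mutant 1. They passed through the other pair, so the filter set their direction. The lists differed in their counts by pair, and are given in the order of the pathway.

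**Figure D3:**
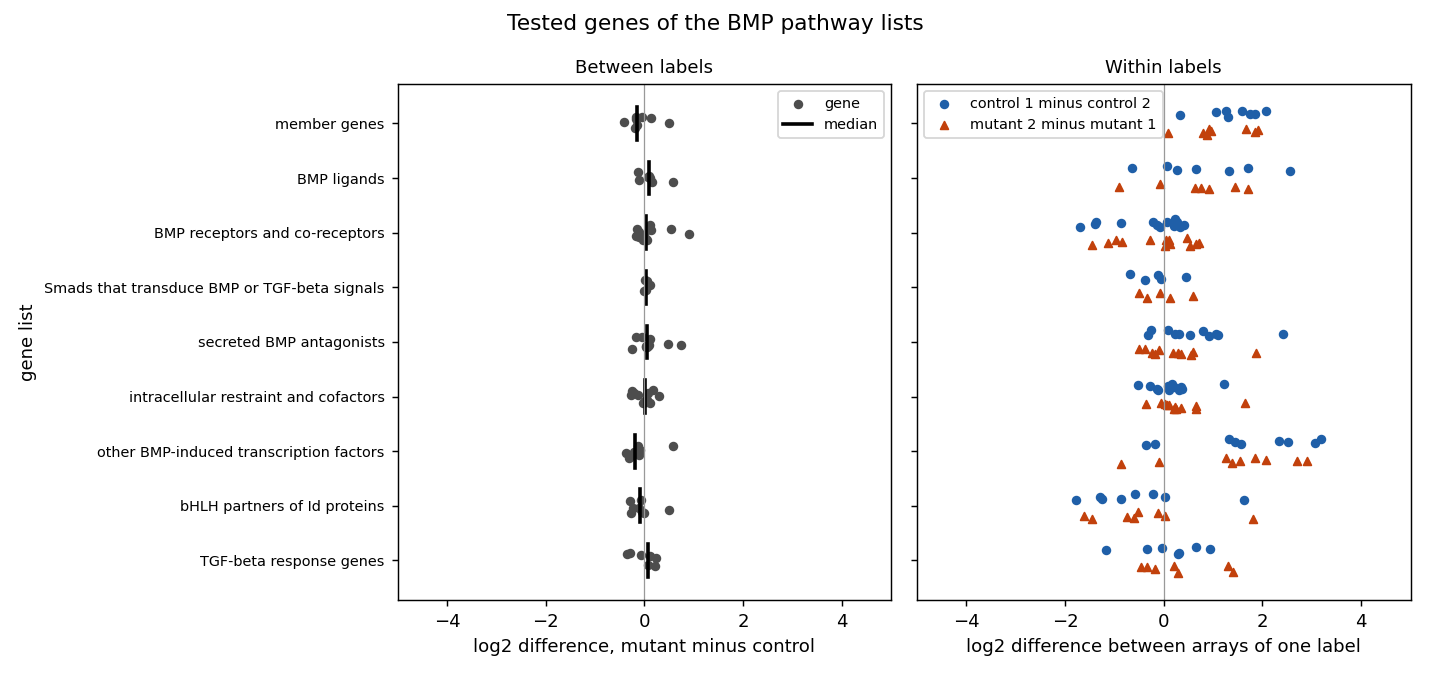
Log2 differences of the tested member genes and of the tested genes of 8 pathway lists, by label (left, a point per gene and a bar for the median) and within labels (right, circles for control 1 minus control 2 and triangles for mutant 2 minus mutant 1). The list medians by label lie between -0.19 and 0.09, single genes reach 0.90 (Hjv), and within-label differences are positive for the members and for most other BMP-induced transcription factors.

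Among BMP ligands, 5 of 7 tested were higher on control 1 and mutant 2, against 29.6% of all tested genes, and 1 was lower. Averaged over control 2 and mutant 1, Bmp6 and Gdf2 of the 5 lay under the filter. They passed through the other pair, so the filter set their direction. Gdf10, a divergent member of the family, gave 1155 and 948 on that pair and 184 and 281 on control 2 and mutant 1. Bmp5 gave 224 and 217 against 57.9 and 70.3, and the authors' deposited table lists it at 10.81 and 12.33 for 2 probe sets. Bmp2, a ligand of the hair placode, gave 135 and 181 against 44.1 and 88.1, with a label difference of 0.58 ± 0.54 (SE, n = 2 per group, limma adjusted p = 0.9999). Bmp4, the main ligand of early dermal condensates, lay close together, at 354 and 339 on the controls and 322 and 306 on the mutants. Bmp7 was the ligand with the opposite order, at 73.5 and 70.3 against 125 and 146.

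Receptors and the Smads that carry the signal did not share the members' pattern. Of 13 receptors and co-receptors, 5 were higher on control 1 and mutant 2 and 4 were lower, and for 0 did both within-label ratios reach 2-fold. The type I receptor gene Bmpr1a gave 1034 and 962 on that pair against 816 and 939. The co-receptors Rgma and Rgmb lay lower on it, at 31.5 and 43.9 against 107 and 100 for Rgma and at 103 and 116 against 369 and 348 for Rgmb. Hjv, a co-receptor known from muscle and liver, had the largest label difference of this list at 0.90 ± 0.59, and Bmpr1b followed at 0.54 ± 0.21 (log2, SE, n = 2 per group, limma adjusted p = 0.9999 for each). Of the 5 transducing Smads, Smad1, Smad2 and Smad4 were lower on control 1 and mutant 2, and Smad3 was higher. Smad1 gave 622 and 665 on that pair against 1009 and 952.

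Secreted antagonists were higher on control 1 and mutant 2 for 6 of 11 tested and lower for 2. Bmper, which binds BMPs outside the cell, gave 307 and 433 against 44.5 and 107 and had a label difference of 0.75 ± 0.99, and Chrdl1, a chordin-like antagonist, gave 121 and 149 against 50.3 and 93.3 with a label difference of 0.49 ± 0.42 (log2, SE, n = 2 per group, limma adjusted p = 0.9999 for each). Nog, the antagonist noggin, gave 52.8 and 35.5 against 20.5 and 18.9. Among intracellular cofactors and restraints, 5 of 12 were higher on that pair and 1 lower. Skil, a corepressor of Smad complexes that TGF-beta induces, gave 565 and 744 against 233 and 228 and was the single gene of that list to reach 2-fold within both labels. Zfp423, a zinc finger partner of BMP Smads, and Smurf1, a ubiquitin ligase for them, had the largest label differences of that list, at 0.29 and -0.26 (limma adjusted p = 0.9999 for each, n = 2 per group).

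Most other transcription factors that BMP can induce showed the members' pair order. By pair, 7 of 9 tested were higher on control 1 and mutant 2 (8 of 11 measured), and those 7 reached 2-fold within both labels, while 2.41% of all tested genes did. Several of their ratios rest on values near the floor of the array, as for Msx2, Dlx2 and Dlx5. On control 2 and mutant 1 these genes lay under the filter. They passed through the other pair, so the filter set their direction. The count over the 11 measured genes did not use the filter, and no share over all measured genes was taken to set beside it. The homeobox gene Msx1 gave 284 and 266 against 36.5 and 26.9, and Msx2 gave 138 and 117 against 14.5 and 15.3. Dlx2 gave 317 and 225 against 23.6 and 16.2, and the authors' deposited table lists it at 87.17. Dlx5 gave 149 and 140 against 2.19 and 27.4, with a label difference of 0.58 ± 1.19 (SE, n = 2 per group, limma adjusted p = 0.9999). The Notch and BMP target Hey1 gave 317 and 284 against 117 and 108, and the authors' deposited table lists it at 2.847. The T-box gene Tbx2, at 4.503 in the authors' deposited table, gave 228 and 197 against 66.2 and 66.1. Lef1, a Wnt effector that BMP can also raise, had the opposite order, at 201 and 131 against 261 and 251.

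Basic helix-loop-helix factors lay mostly the other way. Of 8 tested, 5 were lower on control 1 and mutant 2 and only Hand2 was higher. The E protein genes Tcf4 and Tcf12, whose products Id proteins bind, gave 1551 and 1654 against 2822 and 2513 for Tcf4 and 1761 and 1726 against 2664 and 2495 for Tcf12. Twist2, a regulator of dermal fibroblasts, gave 1196 and 909 against 2943 and 2810, and Twist1 gave 338 and 313 against 1192 and 891. Myod1, of the muscle lineage, and Tcf3, the third E protein gene, had the largest label differences, at 0.50 and -0.28 (limma adjusted p = 0.9999 for each, n = 2 per group). TGF-beta response genes, tested because Smad7 serves that branch too, were higher by pair for 3 of 7 and lower for 2, with 0 at 2-fold within both labels. Ccn1 and Tgfbi had their largest label differences, at -0.36 and -0.28 (limma adjusted p = 0.9999 for each, n = 2 per group).

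Markers of some other cells followed the same array pair, and in bulk RNA fewer cells of a type and less RNA per cell cannot be told apart. Of all tested genes, 29.6% were higher on control 1 and mutant 2 and 23.9% were lower. Adipocyte markers were higher on that pair for 7 of 7 tested. Averaged over control 2 and mutant 1, Adipoq lay under the filter and passed through the other pair, so the filter set its direction. The summed signal of the 8 adipocyte markers measured was 17367 and 16328 on control 1 and mutant 2 and 3293 and 5068 on control 2 and mutant 1. Hair keratin and hair shaft genes gave sums of 3315 and 4185 over 11 measured genes against 79.8 and 61, with 10 of the 11 higher. No share over all measured genes was taken to set beside that count. Of the 7 that passed the filter, 6 were under 10 on control 2 and mutant 1 and passed through the other pair, so the filter set their direction. Leukocyte markers were higher for 6 of 10, with sums of 10227 and 7699 against 5746 and 6573. Skeletal muscle markers were lower for 8 of 10, with sums that did not overlap, at 4632 and 10855 against 12212 and 20869. Dermal fibroblast markers were higher for 1 of 10 and lower for 6, with sums of 42218 and 35978 against 46068 and 51489. No marker of these lists was at 0 on any array, but on control 2 the defining adipocyte gene Adipoq came down to 3.55 and the hair gene Krtap16-3 to 0.195. Detection calls were not used, so a signal above 0 does not show that the cells were present.

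Of 10 blood endothelial markers 2 were higher on control 1 and mutant 2 and 0 were lower, with sums of 4568 and 4286 against 4397 and 3727. By label, 6 of the 10 had both mutants below both controls, against 11% of tested genes. Pericyte and smooth muscle markers gave sums from 6135 to 6581 over all 4 arrays. Of 8 Schwann cell and nerve markers, 1 was higher and 4 were lower, with sums of 1325 and 1316 against 1433 and 1686. Dermal condensate markers were higher for 4 of 9 tested and lower for 4, with sums of 4431 and 4092 against 3542 and 3237. Averaged over the pair where each was lower, Alpl of this list and Foxd3 of the nerve list lay under the filter, so it set their direction. Cartilage markers stood out on mutant 2, with a sum of 11098 against 291 to 332 on the other arrays, and the keratinocyte sum was highest on mutant 1, at 4912 against 1094 to 1636. By label, 5 of 10 keratinocyte markers had both mutants above both controls, against 8.97% of tested genes, and all 10 had a higher mean on mutant. A higher mean on mutant also held for all 10 skeletal muscle, 9 cartilage and 7 adipocyte markers tested. For 9 of 10 dermal fibroblast markers that mean was lower. The part of any of these cells in the members' values was not tested.

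**Figure D4:**
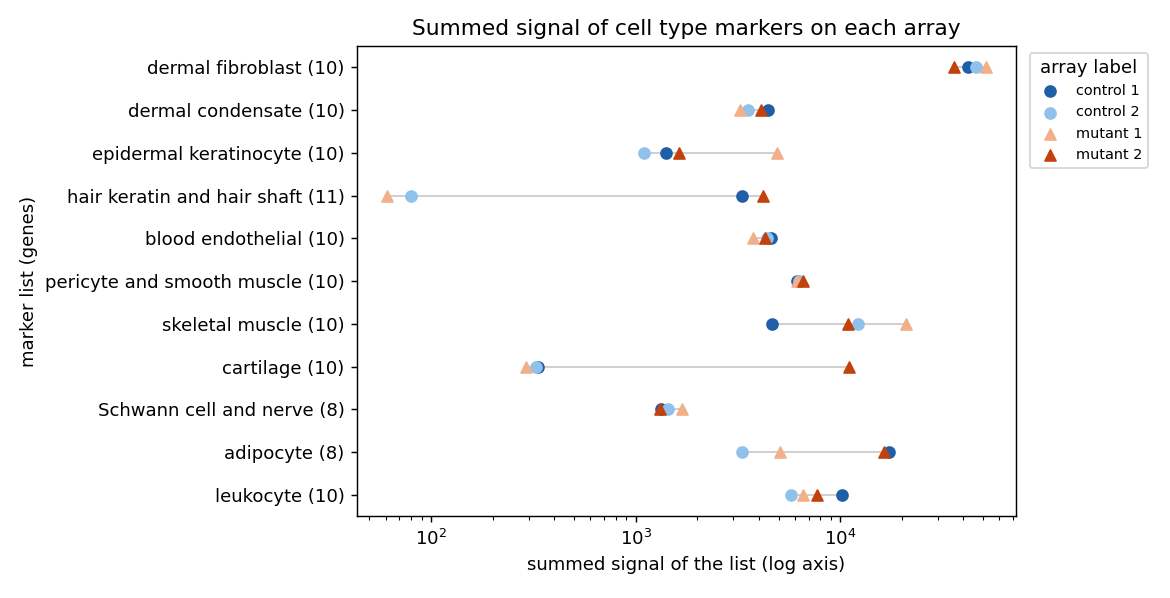
Summed signal (horizontal log axis, arbitrary units) of the genes of each cell type marker list on the 4 arrays, with the number of genes in brackets, circles for arrays labelled control and triangles for arrays labelled mutant. Adipocyte, hair and leukocyte sums are higher on control 1 and mutant 2, endothelial and pericyte sums lie close together, and the cartilage sum is high on mutant 2 alone.

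Genes with the pattern most like that of Smad6 and of Id3 were ranked among 11405 other tested genes by the root mean square distance of log2 values, centred on each gene's mean over the 4 arrays. Nearest to Smad6 was Lipe (distance 0.054), at 157 and 154 on control 1 and mutant 2 and 40.7 and 33.6 on control 2 and mutant 1. Hand2 (0.055), Aldh1a2 (0.066), Lhx8 (0.078) and Angpt1 (0.086) followed. Nearest to Id3 were Acot11 (0.025), Pfn2 (0.046), Slc5a6 (0.054), Rasgef1b (0.055) and Zfpm2 (0.061). Likeness over 4 arrays rests on few values and describes these arrays only.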

How the data were processed

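The deposited values are signal intensities per probe set on a linear scale, made with GCOS and MAS5 per the submitters' processing notes, with no version named. These intensities share a trimmed mean of 150.0 (2% off each end), and no further normalization was applied. A second deposited table gives folds, the ratio of mutant to control that the authors set after GCRMA, detection on 2 of 4 arrays, an uncorrected p under 0.01 and a fold of 2, per the file headers. Its 4 columns per embryo were not used. Of 45101 probe sets, 64 array controls were left out. The platform annotation named 1 gene for 34958, several for 932 and none for 9211. Each gene's brightest probe set (highest mean) stood for it.

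Mutant was compared with control with limma 3.58.1 (lmFit, eBayes with trend) in R 4.3.3. Values were log2(signal + 16), tests were two-sided, and p-values were adjusted by Benjamini-Hochberg over 22519 probe sets at or above the median mean log2 value of 5.515. This scale understates the change of dim probe sets. The test was checked on simulated data with independent noise and no array pairs. That check does not show what the test could detect on these arrays. The labels give separate embryos, and p-values rest on 2 arrays per group. Every member probe set was named, with the 2 tested genes of each pathway list with the largest label difference, list genes in the authors' table and the 5 genes nearest in pattern to Smad6 and Id3. Other list genes were named after their values were seen. Members and lists were chosen with earlier results of these data known. Alternatives were other pseudocounts (1 and 64), no filter, quantile normalization and the mean over a gene's probe sets. Others were a replicate block, leaving out each array and a Welch t-test at the authors' p and fold. Tables were made with pandas 2.3.3 and numpy 2.4.6 under Python 3.11.15, and plots with matplotlib 3.10.9.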

Additional observations from a re-analysis of the deposited data

How the results depend on the processing

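The count of probe sets past the threshold by label was 0 without a filter, with a pseudocount of 1 or 64, with quantile normalization and with the sample number as a replicate block, and ran from 0 to 1 when an array was left out, the 1 being without mutant 2. A Welch t-test at the authors' p under 0.01 and 2-fold called 4 and, after Benjamini-Hochberg adjustment, 0, and none of these was a member. It used the deposited signals above the filter, not GCRMA values with the detection rule, so it does not repeat the authors' test. Deviations of same-numbered arrays correlated at -0.616, which is the within-label correlation of 0.62 given above with its sign turned. The crossed pairing was therefore added as a block after the data were seen, and with it 108 probe sets passed. No member passed in any of these fits, and the cause of the change under the crossed block was not tested. The pair order held for 9 of 9 genes as deposited and after quantile normalization, and for 13 probe sets when every one was counted. Of 46 member differences under the settings that keep all arrays, 46 kept their sign. Those of the 2 block settings, which are among them, could not change, since a block leaves the label difference of this balanced design as it is. Atoh8 (0.50) gave 0.89 and 0.22 with pseudocounts of 1 and 64, and the mean over probe sets gave -0.30 for Smad7 and -0.21 for Id4. Of 36 member differences without an array, 16 turned. Without an array they ran from -0.87 to 0.79 for Smad6, -0.69 to 0.36 for Smad7, -0.08 to 0.07 for Smad9, -0.84 to 0.47 for Id1, -0.31 to 0.02 for Id2, -0.79 to 0.48 for Id3, -1.33 to 0.51 for Id4, -0.37 to 1.37 for Atoh8 and -0.90 to 1.18 for Bambi. A fit without an array sets 1 array against 2. Scan day could not be a block because all arrays share it, nor could the fluidics module, which held 1 array each. Smad9 entered only the fit without a filter.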
